A study of Mus musculus with 16 samples.

Results

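The Hox genes of mouse TM4 cells were examined in the 3 transfection groups of the study. The members are all rows of the counts table with a mouse symbol of the form Hoxa, Hoxb, Hoxc or Hoxd followed by a number and a protein-coding biotype in the GRCm39 annotation. This rule gave 39 genes of 56748 rows, namely 11 Hoxa genes on chromosome 6, 10 Hoxb genes on chromosome 11, 9 Hoxc genes on chromosome 15 and 9 Hoxd genes on chromosome 2. TM4 is an established mouse line with Sertoli-like features, Sertoli cells being the somatic cells of the testis that support the germ cells. Each well received 2.5 µg of plasmid by lipofection 24 h after seeding, and RNA was taken 24 h after that. The plasmid was the empty vector pcDNA3.1-HA (EV, 6 samples), pcDgdf6Y with gdf6Y of the turquoise killifish (gdf6Y, 5 samples), or pcDgdf6Ydel9 with a mutant of that gene (del9, 5 samples). Killifish gdf6Y encodes a secreted growth factor of the BMP family and determines the male sex of that fish. Every group, EV included, received plasmid DNA and the lipid reagent, and no untransfected cells were analysed here. The counts cover mouse genes, so the transfected killifish gene has no row of its own.

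Hox genes encode transcription factors that bind DNA through a homeodomain. In mammals they lie in 4 clusters, and genes at the same place in different clusters are paralogs with related sequences, numbered from the anterior group 1 to the posterior group 13. During development they are switched on in the order of their position, and cultured cells usually keep a set of active Hox genes that reflects the body level they came from. HOX proteins often bind DNA together with PBX and MEIS proteins, Trithorax complexes keep active Hox genes on, and Polycomb complexes keep silent ones off.

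The libraries held between 21486850 and 26444903 counted reads. Of the Sertoli markers, 5 of 11 were expressed in EV (at least 10 normalized counts on average), with Gata4 at 831 ± 6.04 normalized counts (SD, n = 6), while Wt1 and Dmrt1 had no read in any sample. Of 5 fibroblast markers 4 were expressed, Col1a1 at 52455 ± 1703 and Col1a2 at 68543 ± 2120 normalized counts, and no read came from Thy1. Of 4 peritubular and smooth muscle markers 3 were expressed, while 1 of 5 Leydig, 0 of 4 germ cell, 1 of 4 macrophage and 0 of 4 endothelial cell markers were. The sum of the Sertoli list was 1682 to 1770 normalized counts in EV, 1497 to 1619 in gdf6Y and 1570 to 1734 in del9, and that of the peritubular list was 8462 to 8800, 9134 to 9736 and 8816 to 9611. The Sertoli sums did not overlap between EV and gdf6Y, and the peritubular sums did not overlap between EV and either other group. Of single genes with a mean of at least 10 counts, 2.73% lay wholly lower and 2.5% wholly higher in gdf6Y than in EV. In del9, 4.47% lay wholly higher than in EV. The sums rest mostly on Gata4 and Kitl (707 in EV), and on Acta2 (4530) and Tagln (4110). Of these lists Gata4 was called lower in gdf6Y than in EV, against 3.38% of all genes tested. Tagln was called higher in gdf6Y (against 1.7%) and in del9 (against 4.82%) than in EV. The sum of the fibroblast list overlapped between all groups (126871 to 136445 in EV, 123951 to 137772 in gdf6Y and 122372 to 130580 in del9). Of its genes 1 was called higher and 1 lower in gdf6Y than in EV, against 1.7% and 3.38% of all genes. In del9 1 was lower than in EV, against 4.43%. The part of these marker genes in the Hox differences was not tested. In such bulk samples fewer cells of a type and less RNA per cell cannot be told apart. The counts of replicates differed beyond sampling noise in every pair, by 1.41 to 6.48 times the expected chi-square for most, and by 7.60 to 11.5 times for the pairs with gdf6Y replicate 1. The Hox calls are also given without gdf6Y replicate 1, and without it and del9 replicate 2 together. The latter was added because it stood apart in an earlier analysis of these data, and its own pairs were at 3.85 to 6.45 times, within the range of the other pairs. No label says that the replicates were separate cultures, so p-values measure the spread between these samples, which may be technical. The test takes that spread largely from all genes together. The SEs and p-values can therefore understate the spread of a single gene, which the SDs and the values by sample show.

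TM4 cells carried a broad Hox code with its weight on the posterior side. In EV, 32 of the 39 genes were expressed, 10 of 11 Hoxa, 9 of 10 Hoxb, 8 of 9 Hoxc and 5 of 9 Hoxd genes. Levels of different genes were compared as normalized counts per kilobase of exonic sequence that no other gene on the strand shares. On this scale Hoxb9 was highest at 719 ± 29.4 (SD, n = 6) and Hoxa11 followed at 680 ± 35.3, and their samples overlapped. Hoxa10 came next at 329 ± 29.2 counts per kilobase, clear of both neighbours in the order. Hoxb6 (280 ± 4.82), Hoxc11 (279 ± 6.54) and Hoxb7 (264 ± 15.9) formed a group with overlapping samples, and the lowest expressed gene was Hoxa2 at 9.66 ± 1.70 counts per kilobase. Samples overlapped between 24 of the 31 neighbours in the order. Hoxb9 and Hoxa11 stood at the 89.0 and 88.2 percentile per kilobase among the 11212 coding genes expressed in EV, Hoxa9 at the 47.8 and Hoxa2 at the 7.45 percentile. With the length of the canonical transcript in place of the exonic length, Hoxa9 moved from rank 15 to 11 and Hoxb2 from rank 16 to 9, while the first 4 ranks were the same.

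**Figure D1:**
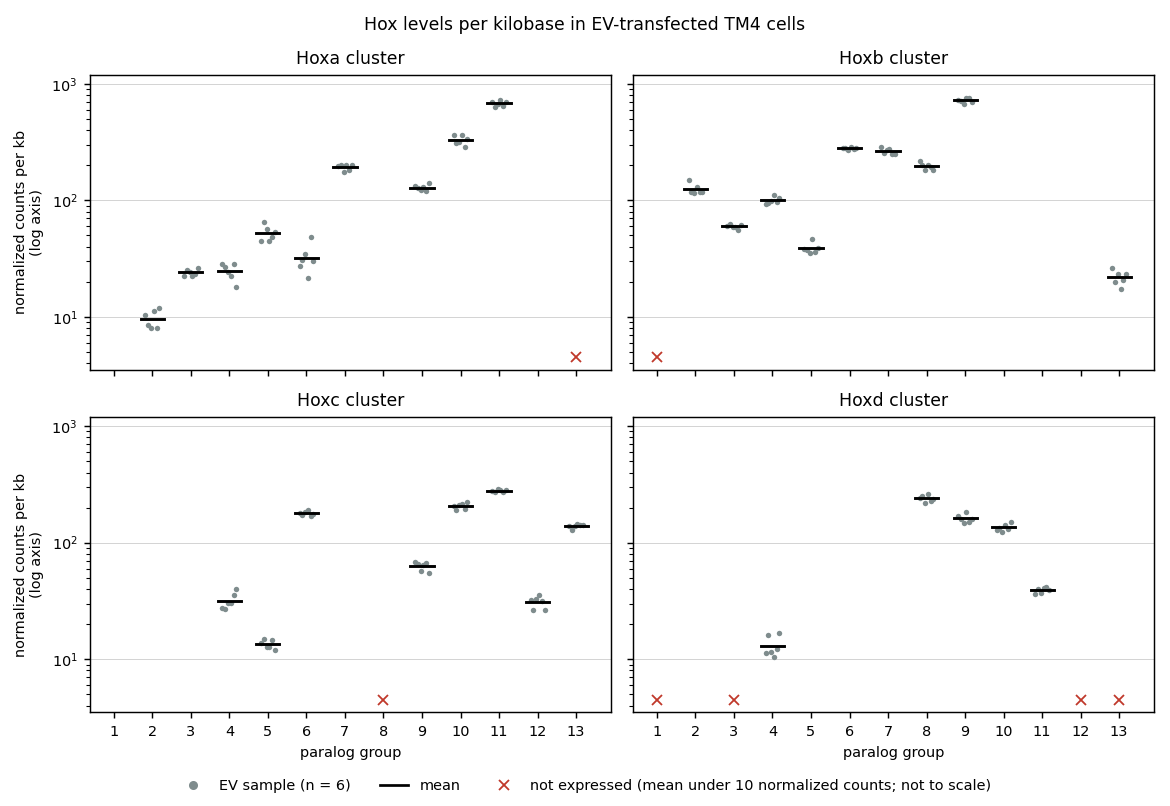
Level of each Hox gene in the 6 EV samples, as normalized counts per kilobase on a log axis, by paralog group (x axis) in the 4 clusters; points are samples, lines are means, and crosses mark the 7 genes below 10 normalized counts. Levels per kilobase run from 9.66 for Hoxa2 to 719 for Hoxb9, and the gap at Hoxc8 lies between the expressed Hoxc6 and Hoxc9.

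The paralog groups were unequal. Summed over the clusters, group 9 gave 1072 ± 41.9 counts per kilobase in EV, group 11 gave 998 ± 38.5 and group 10 gave 671 ± 43.5. Groups 6, 7 and 8 lay between 437 and 491 counts per kilobase. Groups 2 to 5 stayed between 85.7 and 169 (with the canonical length Hoxb2 alone, of group 2, had 267), group 12 was at 30.7 ± 3.71 and group 13 at 161 ± 6.71 counts per kilobase. Groups 9 to 13 are the AbdB-like genes known for patterning of the limbs, the lower spine and the urogenital tract. With 16 of the 39 genes they made up 60.6% ± 0.527 of the sum per kilobase. Groups 5 to 8 (11 genes) made up 30.8% ± 0.611 and the anterior groups 1 to 4 (12 genes) made up 8.64% ± 0.168 (SD over samples, n = 6). These shares also depend on the length used, which the SDs do not cover.

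In the Hoxa cluster the posterior genes had the higher levels per kilobase, though not in strict order, up to a silent last gene. Hoxa2 to Hoxa6 had 9.66 to 52.1 counts per kilobase in EV, Hoxa7 had 192 ± 11.9, Hoxa9 129 ± 7.52, Hoxa10 329 ± 29.2 and Hoxa11 680 ± 35.3. Hoxa10 and Hoxa11 are known for their roles in the reproductive tract, and loss of Hoxa10 in male mice leads to undescended testes. Hoxa13, the next gene beyond Hoxa11 and a factor of the distal limb and hindgut, had no read in any of the 16 samples. A count of 0 allows up to 3 counts of the 145001135 in the EV libraries, counting error only.

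In the Hoxb cluster Hoxb2 stood at 125 ± 12.7 counts per kilobase in EV, Hoxb3 at 59.6 ± 2.34, Hoxb4 at 99.7 ± 6.81 and Hoxb5 at 38.9 ± 4.14. Hoxb6, Hoxb7 and Hoxb8 (196 ± 13.2) were higher, and Hoxb9 was the highest of all Hox genes. With the canonical length Hoxb2 stood at 267 and Hoxb8 at 197 counts per kilobase, so that their order turned. Hoxb13, a gene known from the prostate and the tail bud and set far from its neighbours in the cluster, had 21.7 ± 3.09 counts per kilobase. Hoxb1, the hindbrain gene at the other end, had 3 reads over the 16 samples.

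The Hoxc cluster was active on both sides of a silent gene. Hoxc6 had 179 ± 7.11 counts per kilobase in EV and Hoxc9 63.0 ± 5.60. The posterior Hoxc10 (207 ± 12.2) and Hoxc11 (279 ± 6.54) were higher than both. Hoxc13 (139 ± 6.14), a gene of hair and nails, was above Hoxc9 and below Hoxc6. With the canonical length Hoxc6 stood at 270 and Hoxc10 at 194 counts per kilobase, so that their order turned. Hoxc12 was at 30.7 ± 3.71, Hoxc4 at 31.7 ± 4.99 and Hoxc5 at 13.4 ± 1.18 counts per kilobase. Hoxc8 lies between Hoxc6 and Hoxc9 and gave 10 reads over the 6 EV libraries and 35 over all 16, at most 6 in a library. Its neighbours gave at least 135 reads in every library.

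In the Hoxd cluster the active part was the middle. Hoxd8 had 240 ± 16.1 counts per kilobase in EV, Hoxd9 161 ± 12.4, Hoxd10 135 ± 10.3 and Hoxd11 39.2 ± 2.14. Hoxd4 was at 13.1 ± 2.63 counts per kilobase, and shares exons with Hoxd3, whose reads could not be counted there. Hoxd3, with 51 reads over the EV libraries, fell short of the limit. Hoxd1 had 1 read in all, Hoxd12 none and Hoxd13, the gene of the digits and genital tubercle, 8 reads over the 16 samples. HoxA and HoxB have no group 12 gene. Of groups 12 and 13, Hoxa13, Hoxd12 and Hoxd13 were thus not expressed, while Hoxc12, Hoxc13 and Hoxb13 were.

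Of all Hox reads in EV, as normalized counts not divided by length, the Hoxb cluster held 36.9% on average, Hoxa 34.1%, Hoxc 16.9% and Hoxd 12.1%. In gdf6Y these shares were 36.4%, 34.8%, 16.5% and 12.3%, and in del9 37.1%, 34.0%, 16.6% and 12.3%. The ranges over samples overlapped between the groups for every cluster. The sum over all Hox genes was 12689 ± 430 normalized counts in EV (12231 to 13309), 13275 ± 278 in gdf6Y (12964 to 13568) and 12424 ± 359 in del9 (12057 to 12896). The lowest gdf6Y sample (12964) therefore lay narrowly above the highest del9 sample (12896), while the EV samples overlapped with both. Sums with other scalings, and how often sums of other genes part in this way, are not given here.

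**Figure D2:**
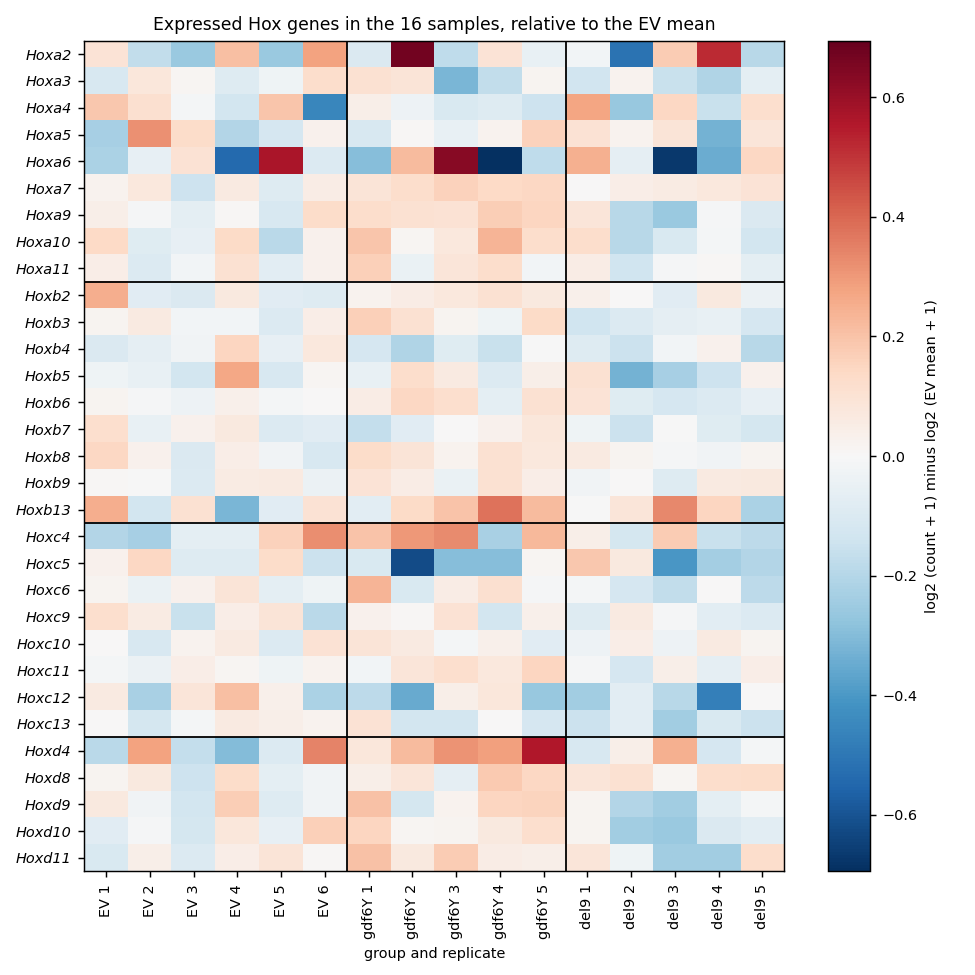
Normalized counts of the expressed Hox genes (rows) in the 16 samples (columns), as log2 of count + 1 minus log2 of the EV mean + 1, with black lines between groups and between clusters. Genes with few reads such as Hoxa6 vary most between samples of a group. In the rows of Hoxa7, Hoxa9 and Hoxa10 all 5 gdf6Y samples lie above the EV mean. The same holds for Hoxb2, Hoxb8, Hoxd4, Hoxd10 and Hoxd11, which were not called. Some lie barely above it, such as Hoxa10 in gdf6Y replicate 2 (1095 against an EV mean of 1086 normalized counts).

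The comparison of gdf6Y with EV takes in any effect of an expressed insert along with that of the growth factor. Only Hoxa9 and Hoxa10, neighbours in the Hoxa cluster, were called, and both were higher in gdf6Y. Hoxa9 acts in blood stem cells and in the reproductive tract, and Hoxa10 in the uterus and the descent of the testis. Of 36 Hox genes tested 2 were called up, against 1.7% of the 26316 genes tested, and 0 were called down, against 3.38% (5.08% in either direction). With the replicate number as a block 3 were called up, against 3.12% of all genes, and 0 down, against 4.71% (7.83% in either direction).

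Hoxa9 (ENSMUSG00000038227) lies at chr6:52200080-52208069 on the minus strand of GRCm39 and Hoxa10 (ENSMUSG00000000938) next to it at chr6:52208164-52217834. Reads of paralogs can be confused where their sequences are alike, so the homeoboxes, the coding stretch of the DNA-binding domain, were compared. Those of Hoxa9 and Hoxa10 were identical at 77.2% of bases, and the longest run that the canonical transcripts of this pair share was 17 bases. Between the 39 Hox genes the homeoboxes agreed at 67.2% to 93.9% of bases in the 42 pairs of a paralog group, with a median of 80.6%, and at a median of 60.6% in the 699 other pairs. The longest shared run of any 2 Hox transcripts was 52 bases, between Hoxa6 and Hoxb4.

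Hoxa9 had 653 to 772 normalized counts in the 6 EV samples, with a median of 707. The 5 gdf6Y samples had 769, 761, 759, 795 and 784, and the del9 samples 750, 619, 592, 703 and 658 normalized counts. Every gdf6Y sample lay above every del9 sample and above 5 of the 6 EV samples, and EV replicate 6, the highest, lay within the range of gdf6Y. The mean in gdf6Y was 774 ± 15.8 (SD, n = 5) against 707 ± 41.3 in EV, a rise of 9.67% with a log2 fold change of 0.13 ± 0.04 (SE) and an adjusted p of 0.0359 (quasi-likelihood test of edgeR, adjusted by Benjamini-Hochberg).

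Hoxa10 had 953 to 1197 normalized counts in EV, with a median of 1076. The gdf6Y samples had 1241, 1095, 1143, 1281 and 1181 and the del9 samples 1181, 950, 1008, 1075 and 994 normalized counts. The groups overlapped, and the gdf6Y mean of 1188 ± 74.4 was above the EV mean of 1086 ± 96.5 by about the spread within each group. The rise was 9.50%, a log2 fold change of 0.13 ± 0.04 (SE) with an adjusted p of 0.0137 in the same test.

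These calls were close to the threshold. With genes of a mean of at least 10 counts only, Hoxa9 stayed called (edgeR adjusted p = 0.0441) and Hoxa10 did not (0.135), and DESeq2 likewise called Hoxa9 (0.0361) and not Hoxa10 (0.106). Both calls were lost with the edgeR 4 dispersion (0.0575 and 0.0781), that of Hoxa10 with a gene length offset (0.0564) and that of Hoxa9 with all 3 groups in a model (0.0601). With 1 sample left out in turn, Hoxa9 stayed called in 5 of 11 fits and Hoxa10 in 8 of 11, and neither was called without gdf6Y replicate 4, EV replicate 2 or EV replicate 5. Without gdf6Y replicate 1 both were called, at edgeR adjusted p = 0.0283 and 0.0324, and Hoxa7 was called too, at 0.0356.

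Hoxa7 and Hoxa11 flank the pair. Hoxa7 had 501 to 583 normalized counts in EV, with a median of 569, and 589, 602, 619, 610 and 613 in gdf6Y. It was the only expressed Hox gene whose gdf6Y samples all lay above the EV samples, as did 2.5% of the 12584 genes with a mean of at least 10 counts, and 0 Hox genes lay wholly below EV, against 2.73%. Its log2 fold change was 0.13 ± 0.05 with an adjusted p of 0.0658 in edgeR. Hoxa11 had 1474 to 1691 normalized counts in EV and 1523 to 1766 in gdf6Y, a log2 fold change of 0.07 ± 0.03 with an adjusted p of 0.349. At an unadjusted p under 0.05 stood 4 expressed Hox genes, Hoxa7, Hoxa9, Hoxa10 and Hoxa11, all higher in gdf6Y, where 12% of the genes with a mean of at least 10 counts were higher at that p and 14.3% of all genes tested differed in either direction.

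**Figure D3:**
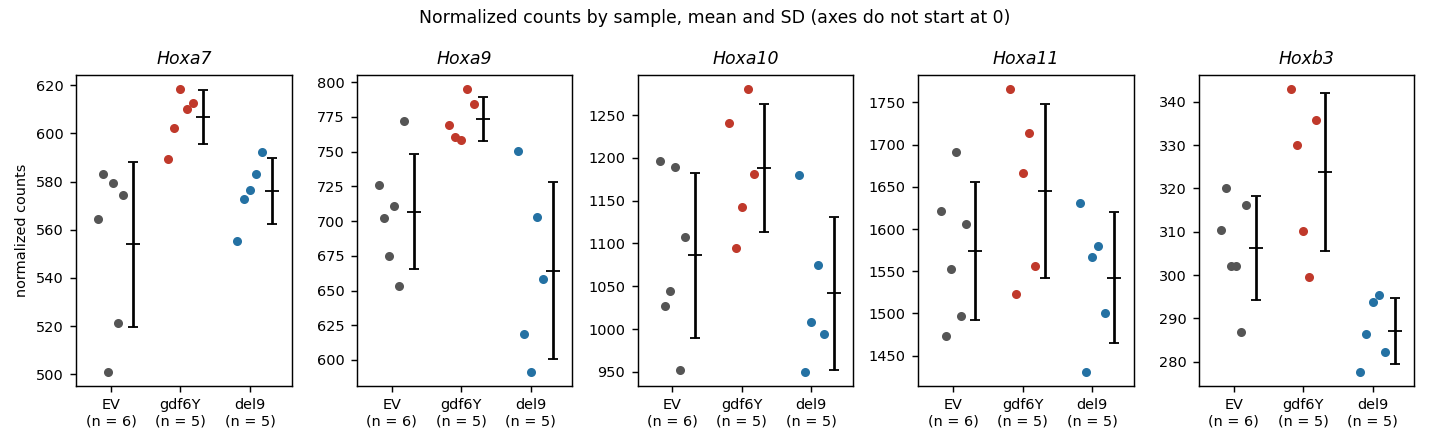
Normalized counts of Hoxa7, Hoxa9, Hoxa10, Hoxa11 and Hoxb3 in each EV, gdf6Y and del9 sample (points in order of replicate number), with mean and SD as bars; the axes do not start at 0. In gdf6Y all Hoxa7 samples lie above EV, and all Hoxa9 and Hoxb3 samples lie above del9.

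The other expressed Hox genes were not called, some of them at larger fold changes with larger errors. The median log2 fold change of the 32 was 0.07, beside 0.00084 over all genes with a mean of at least 10 counts, and 25 of 32 were above 0, beside 50.4% of those genes. By cluster the median was 0.07 for Hoxa, 0.06 for Hoxb, 0.02 for Hoxc and 0.09 for Hoxd, where all 5 genes were above 0. The range ran from -0.25 ± 0.16 for Hoxc5, with 33.0 against 39.3 normalized counts, to 0.32 ± 0.21 for Hoxd4, with 23.1 against 18.6, and neither was called. The interval of 2 standard errors stayed within -0.58 and 0.75 for every expressed gene. For Hoxb9, with the most reads, the log2 fold change was 0.05 ± 0.03.

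**Figure D4:**
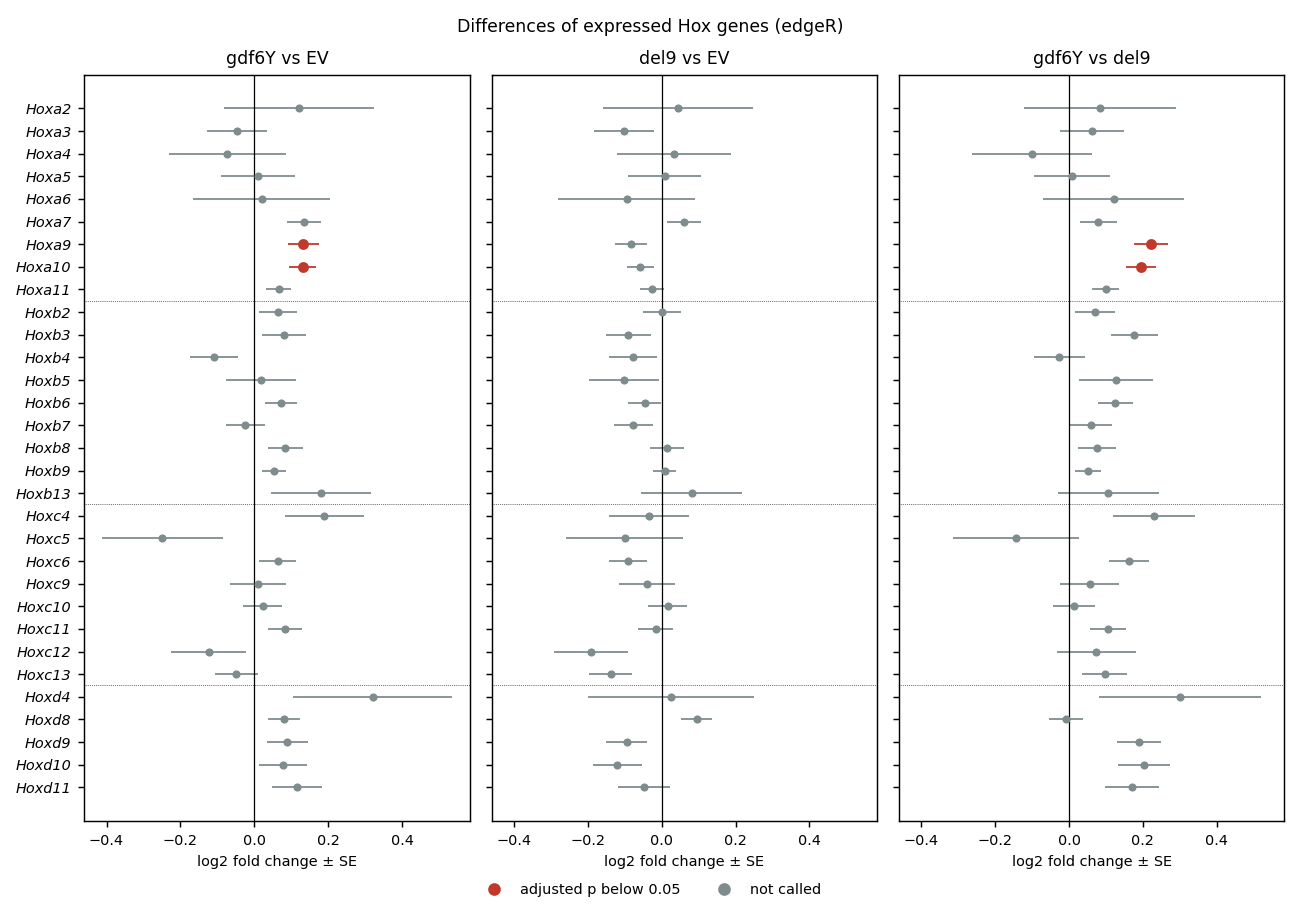
Log2 fold change with SE of the expressed Hox genes in the 3 comparisons, in order of cluster and paralog group; red marks an adjusted p below 0.05. Hoxa9 and Hoxa10 are red in gdf6Y vs EV and in gdf6Y vs del9, and no gene is red in del9 vs EV.

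The comparison of gdf6Y with del9 asks which effects need the intact growth factor, since both groups received a plasmid with an insert. It shares the gdf6Y samples with the comparison above. The counts do not show how much of either insert was expressed, so unequal expression cannot be told apart from the mutation. The same pair was called up here, 2 of 37 Hox genes tested against 0.599% of all genes tested, and 0 were called down, against 0.41% (1.01% in either direction). With the replicate block 5 were called up, against 1.12%, and 0 down, against 1.44% (2.55% in either direction). Hoxa9 was 16.7% higher in gdf6Y than in del9 (774 ± 15.8 against 664 ± 63.7 normalized counts), a log2 fold change of 0.22 ± 0.05 with an adjusted p of 0.000320 in edgeR. Hoxa10 was 14.5% higher (1188 ± 74.4 against 1042 ± 89.7 normalized counts), with 0.20 ± 0.04 and an adjusted p of 0.000377. The call depended on how genes with few reads were handled: with genes of a mean of at least 10 counts only, the adjusted p in edgeR was 0.0900 for Hoxa9 and 0.162 for Hoxa10, at nearly the same fold changes. DESeq2 called Hoxa9 (adjusted p = 0.0310) and not Hoxa10 (0.0957). Without gdf6Y replicate 1 alone both stayed called, and without it and del9 replicate 2 Hoxa9 stayed called (edgeR adjusted p = 0.0125) and Hoxa10 did not (0.0752).

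Of the expressed Hox genes 27 of 32 were higher in gdf6Y than in del9, beside 47.2% of the genes with a mean of at least 10 counts, and the median log2 fold change was 0.09 beside -0.0042. At an unadjusted p under 0.05 stood 11 Hox genes, all higher in gdf6Y, where 5.4% of all those genes were, and 7.88% of all genes tested differed in either direction. Besides Hoxa9, Hoxa10 and Hoxa11 they were Hoxb3, Hoxb6, Hoxc4, Hoxc6, Hoxc11, Hoxd9, Hoxd10 and Hoxd11. Hoxb3, a hindbrain and branchial arch gene, had 343, 330, 310, 300 and 336 normalized counts in gdf6Y and 278, 286, 294, 295 and 282 in del9. These samples did not overlap, as in 0.803% of genes in that direction (1.39% in the other, with 0 Hox genes), and the log2 fold change was 0.18 ± 0.06 with an adjusted p of 0.213 in edgeR. The Hoxd cluster had the largest median, 0.19, with Hoxd9 at 0.19 ± 0.06 (adjusted p = 0.0928), Hoxd10 at 0.20 ± 0.07 (0.182) and Hoxd11 at 0.17 ± 0.07 (0.425), while Hoxd8 was at -0.01 ± 0.05. The medians of Hoxa, Hoxb and Hoxc were 0.08, 0.08 and 0.09.

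The comparison of del9 with EV asks what the plasmid with the mutant does on its own, and it shares samples with both comparisons above. Of 37 Hox genes tested 0 were called in edgeR, against 4.82% of all genes up and 4.43% down (9.25% in either direction), and DESeq2 called 0 as well. With the replicate block it was also 0, against 6.07% up and 5.35% down (11.4% in either direction). At an unadjusted p under 0.05 stood Hoxc13 and Hoxd8, against 18.7% of all genes in either direction and 18.5% higher among those with a mean of at least 10 counts. The del9 and EV samples of 0 expressed Hox genes failed to overlap, against 4.47% of genes with del9 higher and 2.99% with del9 lower. Hoxc13 had 315 to 358 normalized counts in EV, with a median of 345, and 309, 326, 290, 318 and 309 in del9, a log2 fold change of -0.14 ± 0.06 with an adjusted p of 0.127. Among genes with a mean of at least 10 counts its adjusted p was 0.0458, and Hoxc13 was called there. Hoxd8 was at 0.09 ± 0.04 with an adjusted p of 0.165. The median over the 32 expressed genes was -0.04, beside 0.0053 over all genes with a mean of at least 10 counts, and 12 of 32 were above 0, beside 52.2%. Hoxa9 was at -0.08 ± 0.04 (adjusted p = 0.269) and Hoxa10 at -0.06 ± 0.04 (0.422). In both genes del9 replicate 1 was the highest del9 sample, and without it both were called lower in del9, at adjusted p = 0.0333 and 0.0440 in edgeR.

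**Figure D5:**
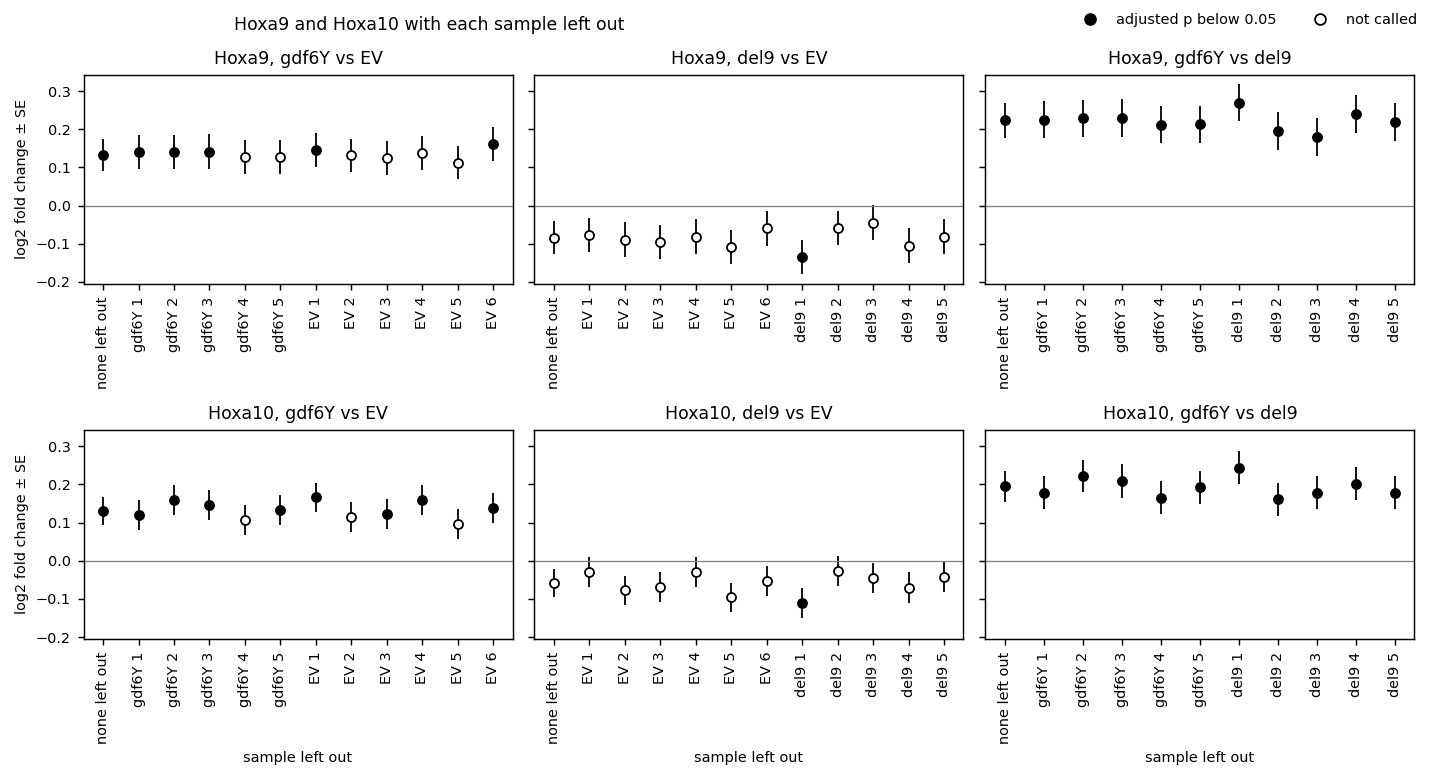
Log2 fold change with SE of Hoxa9 (top) and Hoxa10 (bottom) in the 3 comparisons with each sample left out in turn; filled points have an adjusted p below 0.05. The gdf6Y vs del9 points are all filled, those of gdf6Y vs EV are partly open, and of those of del9 vs EV the points without del9 replicate 1 are filled.

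Upstream of Hoxa9 and Hoxa10 the 250 bases before each start in RefSeq are shown, because these genes moved together in the comparisons with gdf6Y. The windows were placed on GRCm39 by exact match, on the minus strand. Hoxa9 has a start below chr6:52204351-52204600, and Hoxa10 has a start inside the annotated gene below chr6:52211920-52212169 and another at its far end below chr6:52217835-52218084. Capitals mark any of 4 motifs searched on both strands, namely GGCGCC, a GC-rich element bound by BMP-activated Smads, the Smad palindrome GTCTAGAC, the TATA box TATAAA, and TGATNNAT, a site for PBX with HOX.
Hoxa9: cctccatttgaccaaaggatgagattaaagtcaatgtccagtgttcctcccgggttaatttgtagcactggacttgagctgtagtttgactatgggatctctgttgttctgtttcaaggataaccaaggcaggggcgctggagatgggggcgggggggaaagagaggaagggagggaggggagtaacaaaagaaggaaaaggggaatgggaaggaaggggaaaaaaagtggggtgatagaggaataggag
Hoxa10, inner start: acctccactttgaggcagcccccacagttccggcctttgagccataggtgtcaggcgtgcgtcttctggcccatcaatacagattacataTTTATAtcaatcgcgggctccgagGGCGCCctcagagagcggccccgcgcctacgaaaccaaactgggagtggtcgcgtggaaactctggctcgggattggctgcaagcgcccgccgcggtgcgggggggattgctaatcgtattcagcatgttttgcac
Hoxa10, outer start: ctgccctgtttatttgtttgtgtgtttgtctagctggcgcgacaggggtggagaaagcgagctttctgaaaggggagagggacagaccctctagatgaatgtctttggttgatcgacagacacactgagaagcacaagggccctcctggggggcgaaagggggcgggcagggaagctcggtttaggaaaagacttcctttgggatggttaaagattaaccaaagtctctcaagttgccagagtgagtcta
The inner Hoxa10 window held GGCGCC and a TATA box on the reverse strand, and the other windows held none of the motifs. RefSeq's table gave 24 windows for 22 of the 39 Hox genes. Of these, 5 held GGCGCC, those of Hoxa10, Hoxd1, Hoxd3, Hoxd11 and Hoxd13, beside 9.59% of all 32841 windows of that length, and 0 held GTCTAGAC, beside 0.167%. A TATA box stood in 4 (12.4% of all) and TGATNNAT in 4 (7.69% of all). The windows of expressed Hox genes had 2 to 28 CpG dinucleotides (median 12.5, n = 18) and those of genes not expressed 7 to 35 (median 18, n = 6), and all windows had a median of 6. Hoxa9 had 3 and the silent Hoxa13 had 35.

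The clusters also hold microRNA genes, whose products pair with target transcripts through bases 2 to 8, the seed, here in capitals. The mature sequences are shown because the 4 share 2 seeds and the hairpin of mmu-miR-196b lies within an exon of Hoxa9.
mmu-miR-196a-5p: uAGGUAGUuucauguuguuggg
mmu-miR-196b-5p: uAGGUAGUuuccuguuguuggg
mmu-miR-10a-5p: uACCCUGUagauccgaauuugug
mmu-miR-10b-5p: uACCCUGUagaaccgaauuugug
The hairpin rows of Mir196a-1 and Mir196a-2 had no read, and those of Mir10a and Mir10b had 5 and 1 over the 16 samples. In the annotation used here Mir196b lies wholly in the Hoxa9 exon. Reads over several genes were discarded, so its count of 0 says nothing about its level. These poly(A)-selected libraries do not measure mature microRNAs. The seed match ACTACCT for miR-196 stood downstream of the stop codon in 8 of the 39 canonical Hox transcripts, beside 6.7% of 20718 coding transcripts, and the match ACAGGGT for miR-10 in 4, beside 14.3%. The former were Hoxa4, Hoxa5, Hoxa7, Hoxa9, Hoxb1, Hoxb6, Hoxb7 and Hoxc8, and the latter included Hoxa3, Hoxb3 and Hoxd1. Hoxa7 held several matches and Hoxc8 a pair, at chr15:102901408-102901429 and chr15:102902165-102902186, so that the list holds the silent Hoxc8 as well as the called Hoxa9. The sites of Hoxa9, at chr6:52200880-52200901, and of Hoxc8 are shown with the seed match in capitals.
Hoxa9: caaaaggaaagaaaACTACCTt
Hoxc8, proximal: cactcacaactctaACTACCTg
Hoxc8, distal: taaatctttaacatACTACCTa
A match of these letters is a description and no evidence of a site in use.

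Among the genes that work with HOX proteins, the TALE co-factors were 8 of 9 expressed. In gdf6Y against EV and against del9 none of the 9 was called, and in del9 against EV 2 were lower, against 4.43% of all genes. Among these was Pknox2, a relative of the MEIS genes, at -0.09 ± 0.03 with an adjusted p of 0.0389. The related ParaHox and Evx genes and their kin, which include Cdx2 and Evx1, were expressed in 0 of 12 cases.

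All 30 Polycomb genes were expressed, and few were called: 1 lower in gdf6Y than in EV, against 3.38% of all genes, and 1 lower and 2 higher in del9 than in EV, against 4.43% and 4.82%, which is near the share of all genes. Phc3, a subunit of Polycomb repressive complex 1, was lower in gdf6Y than in EV (-0.17 ± 0.03, adjusted p = 1.81e-05 in edgeR) and in del9 than in EV (-0.20 ± 0.03, adjusted p = 2.07e-08). In del9 its complex partners Phc2 (0.11 ± 0.03) and Cbx2 (0.14 ± 0.05) were higher, and no Polycomb gene differed between gdf6Y and del9 at the threshold.

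All 20 Trithorax and MLL genes were expressed, and 7 of them were lower in gdf6Y than in EV, against 3.38% of all genes, while 1 was higher, against 1.7%. The share of all genes takes in genes with few reads. In the fit of genes with a mean of at least 10 counts, 731 of 12587 genes were lower. With the gene length offset 593 of 26316 genes were lower, beside 890 in the main fit. The lower Trithorax and MLL genes were Kmt2a (-0.30 ± 0.03), the MLL methyltransferase that keeps Hox genes active, Kmt2c (-0.27 ± 0.04), Kmt2d (-0.22 ± 0.03), Ash1l (-0.19 ± 0.03), Hcfc1 (-0.15 ± 0.03), Aff4 (-0.14 ± 0.03) and Aff1 (-0.10 ± 0.03). Kmt2a had 2002 ± 85.6 normalized counts (SD) in EV and 1627 ± 304 in gdf6Y. The SE of 0.03, taken largely from all genes, does not carry this wide spread among the gdf6Y samples. For fits with a sample left out, gdf6Y replicate 1 included, only the number called over the lists is given. The Trithorax and MLL gene called higher was Dpy30 (0.12 ± 0.04), a small subunit of these complexes. In del9 against EV 3 were lower, against 4.43% of all genes, and 2 higher, against 4.82%. Here Aff4 (-0.16 ± 0.03), Kmt2a (-0.18 ± 0.03) and Kmt2c (-0.19 ± 0.04) were lower and Dpy30 (0.16 ± 0.04) and Mllt1 (0.09 ± 0.03) higher. Between gdf6Y and del9 only Kmt2d passed the threshold, 1 of 20 against 0.41% of all genes lower, and it was lower in gdf6Y by a log2 fold change of -0.14 ± 0.04 with an adjusted p of 0.0140 in edgeR, and DESeq2 called no gene of these lists there.

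Retinoic acid is a classical inducer of anterior Hox genes, and 8 of 17 genes of its pathway were expressed. Of 15 tested in each comparison with EV, 1 was called higher and 1 lower in gdf6Y, against 1.7% and 3.38% of all genes, and 0 higher and 2 lower in del9, against 4.82% and 4.43%. In gdf6Y against del9 1 was higher, against 0.599%, and 0 lower, against 0.41%. Rarb, a receptor that retinoic acid itself induces, had 99.4 ± 27.2 normalized counts in EV, 79.0 ± 27.1 in gdf6Y and 70.1 ± 23.3 in del9, and was called lower in both groups than in EV (adjusted p = 0.0422 and 9.99e-05 in edgeR), although the spread within each group was as large as the difference from gdf6Y. Rarg was higher in gdf6Y than in EV (0.10 ± 0.03), and Aldh1a1, a retinoic acid producing enzyme, was lower in del9 than in EV (-0.45 ± 0.14). Dhrs3, an enzyme that limits retinoic acid, was higher in gdf6Y than in del9 (41.8 ± 9.37 against 24.6 ± 4.53 normalized counts, 0.78 ± 0.18, adjusted p = 0.00209 in edgeR). This call was lost with DESeq2, filterByExpr or a mean of at least 10 counts.

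Of 45 noncoding rows inside the cluster spans 13 were expressed, and 0 were called in edgeR in any of the 3 comparisons, against 5.08% of all genes in gdf6Y against EV, 9.25% in del9 against EV and 1.01% in gdf6Y against del9. Of these rows 26 to 30 were tested in a comparison. Hoxa11os, transcribed opposite Hoxa11, had 221 ± 12.9 normalized counts in EV, Hoxb3os 179 ± 26.1, Hoxd3os1 81.7 ± 14.9, Hotairm1 from the anterior end of Hoxa 52.4 ± 5.47, and Hotair from the Hoxc cluster 26.9 ± 4.63. Counting used the strand, so antisense reads were kept apart from those of the Hox genes. Hoxd3os1 had the smallest unadjusted p of these 5 in gdf6Y against del9, with a log2 fold change of 0.27 ± 0.11 and an adjusted p of 0.399.

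The genes beside the clusters were examined as a frame for the Hox values. They lay 8.75 kb (Evx2) to 909 kb (Nfe2l2) from their cluster, so that many were not adjacent to it. The called ones named below lay 118 kb (Atp5mc1) to 757 kb (Atp5mc3) away. Of the 24 nearest coding genes, 3 on each side, 19 were expressed, and none was called in gdf6Y against del9. In gdf6Y against EV 2 were lower, against 3.38% of all genes, Calcoco1 (-0.18 ± 0.05) and Atf7 (-0.11 ± 0.03), both on the same side of the Hoxc cluster. In del9 against EV these genes and Cbx5 (-0.10 ± 0.02) were lower, 3 against 4.43% of all genes, and Atp5mc1 (0.12 ± 0.03) and Atp5mc3 (0.11 ± 0.03) higher, 2 against 4.82%. None of the 6 genes beside the Hoxa cluster, Skap2 and Evx1 being the nearest, was called in any comparison.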

How the data were processed

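RNA of 16 TM4 samples was sequenced from poly(A)-selected, stranded libraries with unique molecular identifiers, made from 300 ng of RNA. The authors aligned reads to GRCm39 with STAR 2.7.10a, removed duplicates with UMI-tools and counted uniquely mapped reads per gene and strand with featureCounts 2.0.3; reads that overlap several genes were discarded, which lowers genes with shared exons. The deposited values are whole-number counts without normalization. Gene names came from a GENCODE annotation of GRCm39 that matched 56017 of the 56748 identifiers. Sequences came from RefSeq and GENCODE.

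Counts were compared with edgeR 4.0.16 (R 4.3.3): all genes detected by 1 or more counts in either group compared, TMM scaling, the quasi-likelihood test with its legacy dispersion, no covariates, and Benjamini-Hochberg adjustment over all genes tested at 0.05. Standard errors come from the fold change and the F statistic, so they carry the spread that the test shares over genes. Normalized counts are counts scaled to the mean effective library size. Expressed means at least 10 normalized counts on average in EV. Floors use 3 counts. By rule, values per sample are given for called Hox genes, levels for other expressed ones, and from each list the called genes, at most 10 per comparison by adjusted p; called genes beyond the 10, and the samples of Hoxa7, Hoxa11, Hoxb3 and Hoxc13, were added after their values were seen. Members and lists were chosen with earlier results of these data known. Values of 1 expressed member are not reported here, and the figures leave it out. The steps were tested on simulated data. DESeq2 1.42.0, other scalings, filters, a replicate block, a length offset and leaving out samples were the alternatives.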

Additional observations from a re-analysis of the deposited data

Results flagged for a closer look

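In 5 of 96 sets of samples (32 expressed Hox genes in 3 groups) 1 sample stood far from the others of its group, where chance alone gives about 4.8, and none of these genes was called in any comparison. The measure is the gap to the nearest sample divided by the range of the group. Hoxa2 in gdf6Y replicate 2 had 36.1 normalized counts against 19.6 to 23.9 in the others (0.741). Hoxa5 in del9 replicate 4 had 77.9 against 99.6 to 105 (0.802). Hoxb5 in EV replicate 4 had 131 against 99.1 to 109 (0.679). Hoxb6 in del9 replicate 1 had 692 against 599 to 623 (0.735), and Hoxc4 in gdf6Y replicate 4 had 69.7 against 93.6 to 103 (0.724).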

How the results depend on the processing

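No direction was reversed. The number of Hox genes called up in gdf6Y against EV, 2, became 1 with DESeq2, filterByExpr, a mean of at least 10 counts or the length offset (Hoxa9) or with all groups in a model (Hoxa10), 0 with the edgeR 4 dispersion, and 0 to 3 with a sample left out (0 without gdf6Y replicate 4 or EV replicate 5; 1, Hoxa10, without gdf6Y replicate 5 or EV replicate 3 or 4, and 1, Hoxa7, without EV replicate 2). In gdf6Y against del9 the 2 became 1 with DESeq2 and without gdf6Y replicate 1 and del9 replicate 2 (Hoxa9; chosen after seeing the data), 0 with filterByExpr or a mean of at least 10 counts, and 2 to 4 with a sample left out (4 without gdf6Y replicate 2). In del9 against EV the 0 called down became 1 with filterByExpr or a mean of at least 10 counts (Hoxc13), and 0 to 2 with a sample left out (2 without del9 replicate 1). The causes were not tested. The expressed Hox genes numbered 26 to 33 at limits of 50 and 5 counts.

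With the replicate number as a block, 3 Hox genes were called up in gdf6Y against EV (Hoxa7 added, adjusted p = 0.0154 in edgeR), 5 in gdf6Y against del9 (Hoxc6, Hoxd9 and Hoxd10 added), and 0 in del9 against EV. Samples of the same number correlated at 0.00400 to 0.198, -0.0282 to 0.162 and 0.0994 to 0.163 in gdf6Y against EV, del9 against EV and gdf6Y against del9 (deviations of 12584 genes from their group means), and not every sample correlated best with its own number, so the number was not taken as a pairing.

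Of the co-factor, Polycomb, Trithorax and retinoid genes 11 were called in gdf6Y against EV (17 with the block and the length offset, 8 to 14 with a sample left out) and 12 in del9 against EV (7 to 13, with 7 without del9 replicate 5). In gdf6Y against del9 it was 2, and 0 with DESeq2, filterByExpr or a mean of at least 10 counts, 1 with the edgeR 4 dispersion, 7 with the block, 7 with the block and length offset, 4 without gdf6Y replicate 1 and del9 replicate 2, and 0 to 6 with a sample left out (6 without gdf6Y replicate 1, 0 without gdf6Y replicate 3, 1 without gdf6Y replicate 2 or 4 or del9 replicate 2, 4 without del9 replicate 1 or 4).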
